A study of Mus musculus with 8 samples.

Results

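The SLC25 family of mitochondrial carriers was examined in BMDM, macrophages that were grown in culture from the bone marrow of mice. Its members were chosen by name: all gene symbols in the count files that start with Slc25a followed by a digit, which gave 47 genes of 24421. SLC25 proteins are small proteins of several membrane-spanning helices that sit, with few exceptions, in the inner mitochondrial membrane. Each exchanges or imports a set of solutes, such as ADP against ATP, phosphate, carboxylates, amino acids, carnitine, cofactors or iron, and so ties the chemistry of the matrix to that of the cytosol. The carriers are made in the cytosol and inserted into the inner membrane by the TIM22 import pathway.

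The tested libraries (CKO, replicates 2, 6, 7 and 8) came from cells of OPA1f/f mice that also carry Lyz2-Cre, a driver that expresses Cre recombinase from the Lyz2 locus in myeloid cells. The control libraries (FLOX, replicates 3, 4, 6 and 7) came from cells of OPA1f/f mice without the driver. All 8 cultures had received interleukin 4 (IL-4), the cytokine of alternative macrophage activation, for 24 h, so every value below describes genotype under IL-4. The OPA1 protein, a GTPase related to dynamins, fuses inner mitochondrial membranes and shapes their cristae, so it acts in the membrane where the carriers reside.

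Library depth was 11764855 to 18939948 gene-assigned read pairs. Whether each library stands for a mouse of its own is not labelled, so the p-values below rest on the spread between libraries, which may be technical. Opa1 itself had 100.1 ± 4.42 CPM (its counts per unit of scaled library size) in CKO libraries and 114 ± 11.6 CPM in FLOX libraries (SD, n = 4 each; log2 fold change -0.19 at an edgeR adjusted p of 0.0544). A whole-gene count can still include transcripts that lack the deleted part, so these counts do not show whether the deletion took place. Lyz2, which holds the Cre insertion, was lower in all 4 CKO libraries (log2 fold change -1.87 at an edgeR adjusted p of 1.05e-07). Macrophage markers were present, at a sum of 6494 to 7676 CPM over 8 genes in CKO and 12731 to 14179 CPM in FLOX, where Lyz2 is one of the 8. The extraction protocol mentions islets, and 7 of 8 islet markers had 0 counts. Erythroid markers, whose cells use Slc25a37 and Slc25a38 heavily, summed to 0.0838 to 0.527 CPM in CKO and 0.140 to 0.681 CPM in FLOX, with both globin genes of the list at 0. Proliferation genes were higher in CKO: all 10 of a list rose, against 23.8% of all tested genes. Their sum was 2976 to 3645 CPM in CKO and 1389 to 1702 CPM in FLOX. A list of 4 monocyte markers summed to 68.5 to 86.3 CPM in CKO and 30.4 to 37.9 CPM in FLOX, and a list of 4 neutrophil markers to at most 7.38 CPM in CKO and at most 2.38 CPM in FLOX. The part of proliferation, monocytes or neutrophils in the results below was not tested, and the driver, the deletion and any unlabelled batch that follows genotype cannot be told apart. In RNA from whole cultures, fewer cells of a type and less RNA per cell also cannot be told apart.

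Of the 47 members, 38 passed a filter on low counts and were tested, and 9 were too low. Slc25a21, Slc25a41 and Slc25a48 had 0 counts in all 8 libraries, which allows 0.162 to 0.251 CPM per library at a limit of 3 counts; this limit covers counting error only. Slc25a54 had 1 count in CKO replicate 7 and 1 in FLOX replicate 4, and 0 elsewhere. The ornithine carrier Slc25a2 had 0 counts in every CKO library, against 2, 1, 3 and 2 counts in FLOX replicates 3, 4, 6 and 7, all within the limit that a count of 0 allows. Slc25a29, a carrier of basic amino acids, had 1 to 3 counts in CKO libraries and 2 to 7 in FLOX libraries. The testis form of the ADP/ATP carrier, Slc25a31, had 1 to 3 counts in CKO and 0 to 4 in FLOX. Slc25a34 had 0 to 5 counts in CKO and 0 to 6 in FLOX, and Slc25a47 had 5 to 12 in CKO and 6 to 14 in FLOX. The counts of these 9 genes were too few for a comparison of the genotypes at this depth.

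Levels of different carriers were compared only after division by exon length (CPM per kilobase). The tested members spanned from 0.367 CPM per kilobase for Slc25a27, a brain-type uncoupling protein homologue, to 418 for Slc25a5 as means over the 8 libraries, with a median of 9.28. Slc25a5, the ADP/ATP carrier of proliferating and many other tissues, stood at 404 ± 9.19 CPM per kilobase in CKO and 432 ± 30.4 in FLOX (SD, n = 4 each). Slc25a3, the phosphate carrier, followed with 228 ± 7.28 CPM per kilobase in CKO and 254 ± 21.4 in FLOX. The heart and muscle ADP/ATP carrier Slc25a4 ranked next, at 86.01 ± 2.23 CPM per kilobase in CKO and 79.7 ± 8.01 in FLOX. These levels do not overlap between the 3 genes. Together they made up 59.7% to 60.3% of the family's summed CPM per kilobase in the CKO libraries and 60.1% to 63.2% in the FLOX libraries. The next ranks were close to each other: the oxoglutarate carrier Slc25a11 (51.9 ± 2.88 CPM per kilobase in CKO, 59.7 ± 5.10 in FLOX) and the glutathione carrier Slc25a39 (52.1 ± 4.49 in CKO, 56.7 ± 5.21 in FLOX) did not differ beyond their spread.

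**Figure D1:**
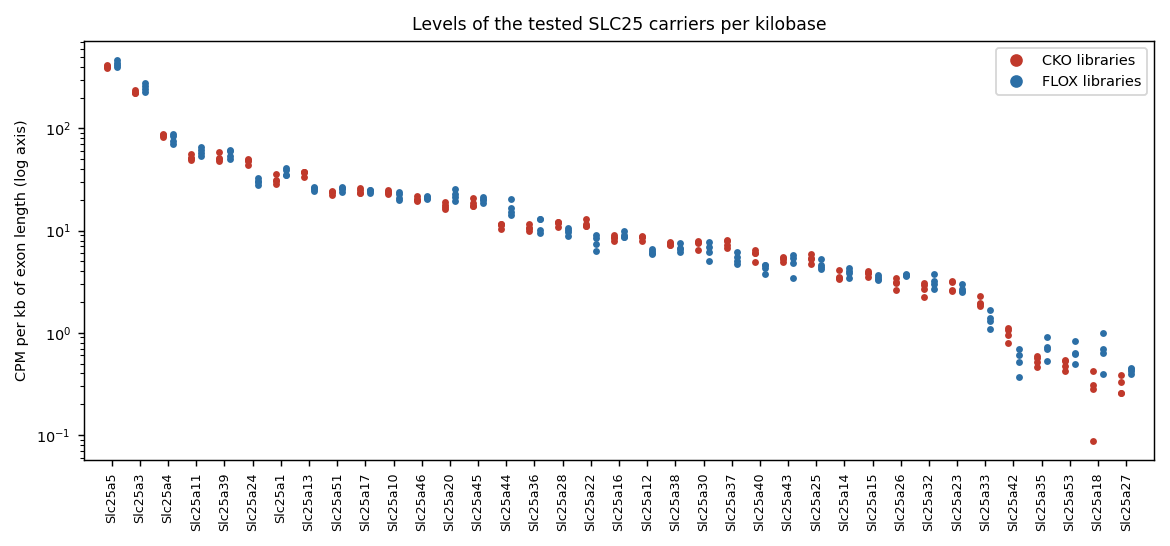
Level of 37 tested SLC25 carriers in CPM per kilobase of exon length (log axis), ordered by the mean over 8 libraries; each point is 1 library, CKO in red left of FLOX in blue. Slc25a5, Slc25a3 and Slc25a4 stand above all others, and the range runs from 0.367 for Slc25a27 to 418 for Slc25a5.

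Single carriers changed in both directions while the summed transcript level of the family stayed within its spread. By edgeR's quasi-likelihood test, with Benjamini-Hochberg adjustment and a threshold of 0.05, 15 of the 38 tested members were called (39.5%, against 45.4% of all 11519 tested genes). Of these 9 rose (23.7%, against 23.8% of all tested genes) and 6 fell (15.8%, against 21.6%). The number of falls was 2 without CKO replicate 6 or 8 and 3 without CKO replicate 7, where the calls over all genes also dropped, to 4273, 4371 and 4388, against 5231 with all libraries. The median log2 fold change was -0.07 over the members and -0.02 over all tested genes. CPM ranges of the genotypes did not overlap for 13 members (34.2%), against 42.7% of all tested genes. Called changes of at least 0.5 on the log2 scale numbered 7 (18.4%, against 19.3%), with 5 rises (13.2%, against 12.5%) and 2 falls (5.26%, against 6.75%). Both counts of falls include Slc25a18, which passed the filter on low counts through its FLOX libraries alone and so could be tested only because it was higher there; without it they are 5 and 1. The summed CPM of all 47 members was 2422 ± 22.2 in CKO and 2433 ± 97.1 in FLOX (SD, n = 4 each), and the groups overlapped. No share lies far above that of all genes, and the changes described next are those of single carriers.

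**Figure D2:**
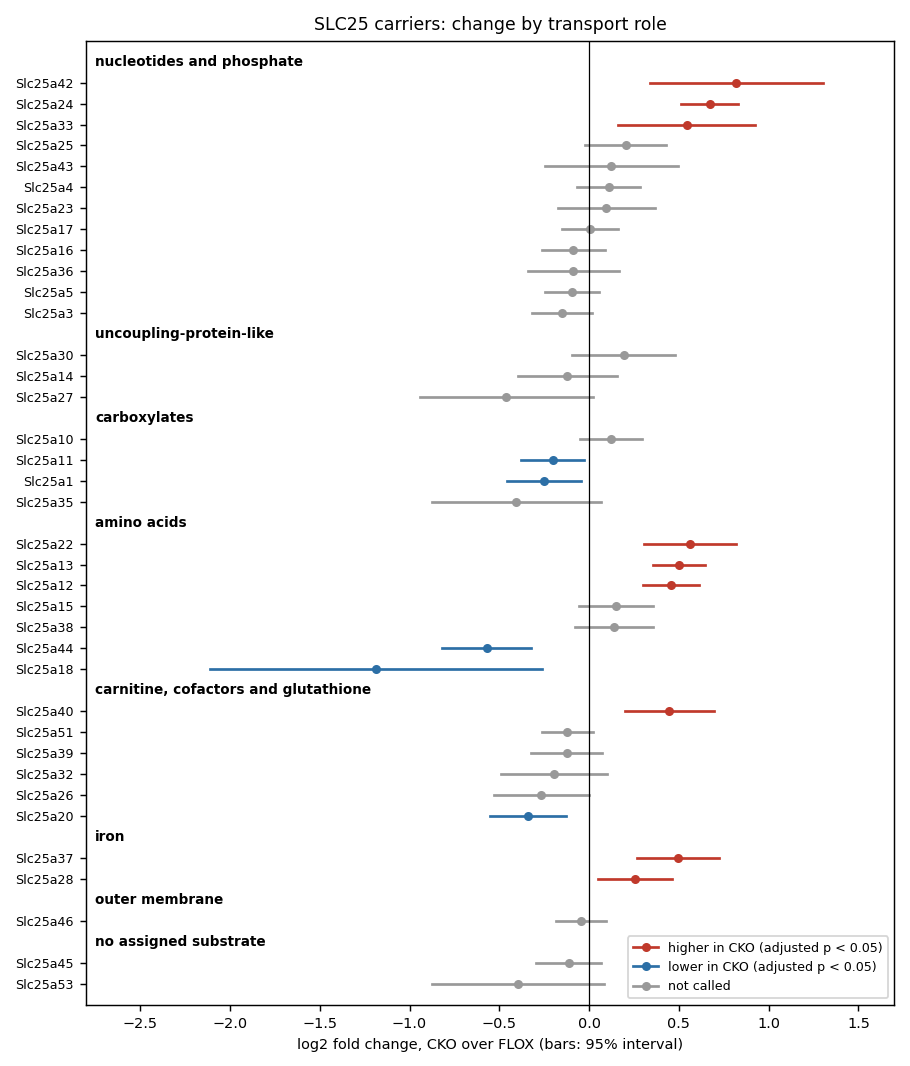
Log2 fold change (CKO over FLOX) of 37 tested SLC25 carriers, grouped by transport role and ordered by size within a role; points are edgeR estimates, bars 95% intervals with 6 degrees of freedom, colours mark calls at an adjusted p of 0.05. The 9 rises lie among nucleotide, amino acid, glutathione and iron carriers, and the 5 falls drawn among carboxylate, amino acid and carnitine carriers. These falls include Slc25a18, which passed the filter on low counts through its FLOX libraries alone.

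Among 12 tested carriers of nucleotides and phosphate 3 rose and none fell, where 23.8% of all tested genes rose and 21.6% fell. Neither this count nor those of the other roles below were tested against these shares. Slc25a24 (ENSMUSG00000040322, chromosome 3, 109123149 to 109168457, mm10), a calcium-regulated carrier that exchanges ATP-magnesium for phosphate, had 151, 166, 169.5 and 171 CPM in CKO replicates 2, 6, 7 and 8, against 94.9, 104, 103 and 111 CPM in FLOX replicates 3, 4, 6 and 7. Every CKO library lay above every FLOX library, and this was the smallest p of the family (log2 fold change 0.67 with an SE of 0.07 and an edgeR adjusted p of 6.09e-06, or 159% of FLOX). Slc25a42 (chromosome 8, 70184340 to 70212305), which carries coenzyme A into the matrix, had the largest rise but few counts. Its values were 3.44, 3.56, 3.02 and 2.56 CPM in CKO and 1.19, 1.66, 2.21 and 1.92 CPM in FLOX in the same order of replicates, from 182 counts over the CKO and 107 over the FLOX libraries (log2 fold change 0.82 with an SE of 0.20 and an edgeR adjusted p of 0.00473, 95% interval 0.34 to 1.30). Slc25a33 (chromosome 4, 149744036 to 149774277), a carrier of pyrimidine nucleotides, had 4.36, 3.69, 3.45 and 3.64 CPM in CKO and 3.15, 2.04, 2.48 and 2.63 CPM in FLOX. The ranges did not overlap (log2 fold change 0.54 with an SE of 0.16 and an edgeR adjusted p of 0.0132). However, the call of Slc25a33 ended without CKO replicate 2 and FLOX replicate 6 together (edgeR adjusted p = 0.057) and without FLOX replicates 4 and 7 together (edgeR adjusted p = 0.0703). It also ended with the replicate number as a block (edgeR adjusted p = 0.133).

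The most abundant carriers of this role did not pass the test. Slc25a5 (chromosome X, 36795651 to 36798807) had 514, 495, 507 and 489 CPM in CKO and 584, 519, 543 and 495 CPM in FLOX (log2 fold change -0.10 with an SE of 0.06 and an edgeR adjusted p of 0.236). Slc25a3 (chromosome 10, 91116574 to 91124059) had 465, 443, 434 and 436 CPM in CKO and 542, 473, 511 and 448 CPM in FLOX (log2 fold change -0.15 with an SE of 0.07 and an edgeR adjusted p of 0.0869), and passed when FLOX replicate 7 was left out (-0.20, edgeR adjusted p = 0.0272). For Slc25a4 (chromosome 8, 46206797 to 46211284) the values were 166, 169, 168 and 159 CPM in CKO and 169.7, 146, 162 and 136 CPM in FLOX (log2 fold change 0.11 with an SE of 0.07 and an edgeR adjusted p of 0.232). In all 3 genes FLOX replicates 3 and 6 lay above FLOX replicates 4 and 7. Without FLOX replicates 4 and 7, Slc25a5 was called lower (-0.17, edgeR adjusted p = 0.0212), and without FLOX replicates 3 and 6, Slc25a4 was called higher (0.23, edgeR adjusted p = 0.0023). The relatives of Slc25a24, Slc25a25 (21.9 ± 1.84 CPM in CKO, 19.04 ± 1.92 in FLOX; log2 fold change 0.20 at an edgeR adjusted p of 0.0885) and Slc25a23 (9.70 ± 1.21 CPM in CKO, 9.07 ± 0.763 in FLOX; log2 fold change 0.10 at an edgeR adjusted p of 0.508), did not pass. Slc25a36, the other carrier of pyrimidine nucleotides, had 52.7, 56.03, 56.5 and 61.9 CPM in CKO and 49.8, 69.3, 54.1 and 68.8 CPM in FLOX (log2 fold change -0.09 at an edgeR adjusted p of 0.516). There FLOX replicates 4 and 7 lay above FLOX replicates 3 and 6, and all CKO libraries lay within the FLOX range. Also not called were Slc25a16, the peroxisomal carrier Slc25a17 and Slc25a43, whose log2 fold changes ran from -0.09 to 0.12.

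Of 7 tested amino acid carriers 3 rose and 2 fell, against 23.8% and 21.6% of all tested genes. Of the 2 that fell 1 is Slc25a18, which could be tested only through its FLOX libraries. The 3 that rose move glutamate: Slc25a12 and Slc25a13 exchange aspartate for glutamate within the malate-aspartate shuttle, which brings reducing equivalents of cytosolic NADH into the matrix, and Slc25a22 imports glutamate together with a proton. Slc25a13 (ENSMUSG00000015112, chromosome 6, 6041218 to 6217173) had 104, 116, 116 and 117 CPM in CKO replicates 2, 6, 7 and 8, against 79.4, 76.9, 82.99 and 81.2 CPM in FLOX replicates 3, 4, 6 and 7. Its groups lay far apart for their spread (log2 fold change 0.50 with an SE of 0.06 and an edgeR adjusted p of 2.81e-05, or 142% of FLOX). Slc25a12 (ENSMUSG00000027010, chromosome 2, 71271063 to 71367749) showed 50.5, 55.3, 55.8 and 55.2 CPM in CKO and 38.4, 40.2, 41.8 and 37.6 CPM in FLOX, again without overlap (log2 fold change 0.46 with an SE of 0.06 and an edgeR adjusted p of 9.03e-05, or 137% of FLOX). In both genes CKO replicate 2 was the lowest CKO library. Slc25a22 (chromosome 7, 141429744 to 141437892) had 31.9, 37.4, 31.7 and 33.4 CPM in CKO and 24.7, 18.4, 26.2 and 21.4 CPM in FLOX (log2 fold change 0.56 with an SE of 0.10 and an edgeR adjusted p of 0.000836); the FLOX libraries spread more here, with replicates 3 and 6 above 4 and 7.

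The amino acid carriers that fell differ in level. Slc25a44 (ENSMUSG00000050144, chromosome 3, 88410498 to 88425139), which carries branched-chain amino acids into mitochondria, had 40.3, 36.8, 41.7 and 41.9 CPM in CKO and 55.04, 73.6, 51.2 and 59.1 CPM in FLOX. The CKO libraries were close together and all below FLOX, where replicate 4 was the highest (log2 fold change -0.57 with an SE of 0.10 and an edgeR adjusted p of 0.000626, or 67.4% of FLOX). Slc25a18 (chromosome 6, 120773578 to 120794336), the other glutamate carrier, had only 2, 9, 13 and 8 counts in CKO, against 19, 25, 14 and 17 in FLOX. It passed the filter on low counts through FLOX alone, so its fall is given as a description, and its p-values carry the same limit. On the CPM scale this was 0.168, 0.593, 0.801 and 0.539 in CKO and 1.33, 1.89, 0.756 and 1.21 in FLOX; CKO replicate 7 lay above FLOX replicate 6 (log2 fold change -1.19 with an SE of 0.38 and an edgeR adjusted p of 0.0217, 95% interval -2.11 to -0.26). Its call ended without CKO replicate 2 (-0.92, edgeR adjusted p = 0.0551), 6 (adjusted p = 0.0517) or 8 (0.0565), without FLOX replicate 4 (0.0607), and without FLOX replicates 4 and 7 together (0.106). It also ended with the replicate number as a block (-0.48, edgeR adjusted p = 0.426). The ornithine carrier Slc25a15 (13.1 ± 0.795 CPM in CKO, 11.8 ± 0.629 in FLOX; log2 fold change 0.15 at an edgeR adjusted p of 0.166) and Slc25a38, a glycine carrier needed for haem synthesis (13.4 ± 0.503 CPM in CKO, 12.1 ± 1.09 in FLOX; log2 fold change 0.14 at an edgeR adjusted p of 0.225), did not pass.

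**Figure D3:**
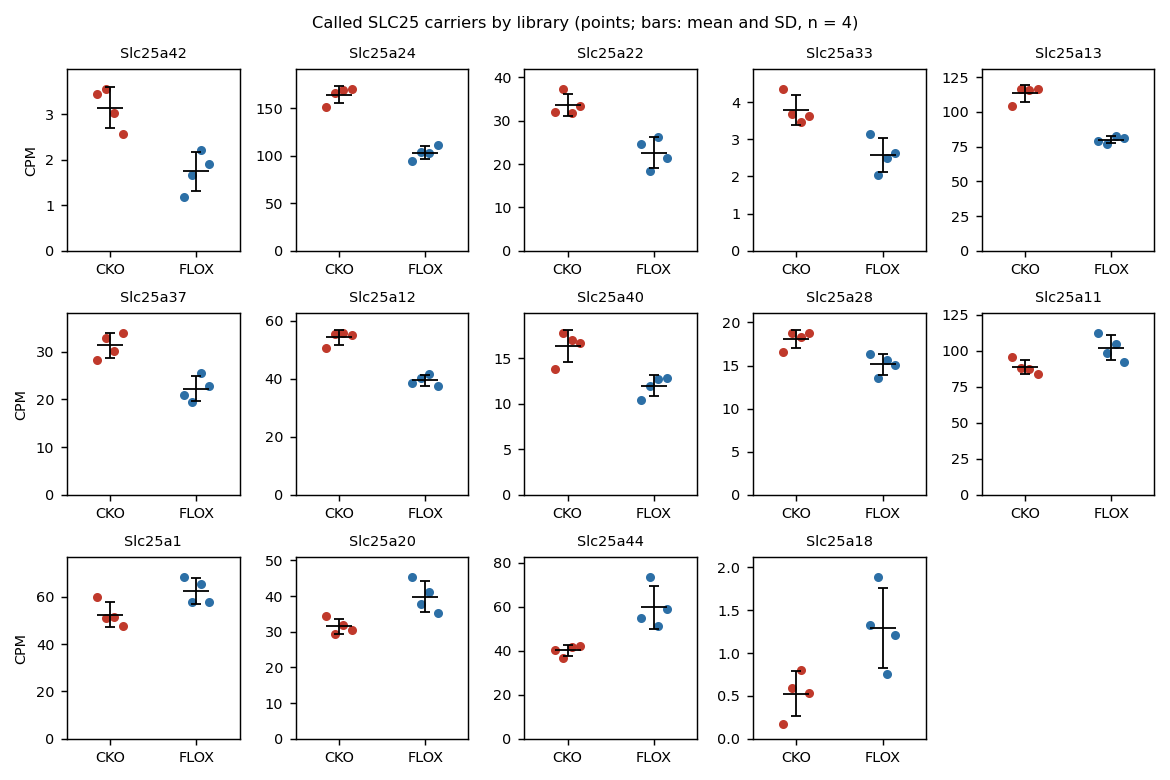
CPM of 14 called SLC25 carriers in each library, ordered from the highest to the lowest log2 fold change; points are libraries, CKO left of FLOX, black marks the mean and SD (n = 4), and every axis starts at 0. Slc25a24, Slc25a13 and Slc25a12 lie clearly apart, whereas Slc25a11, Slc25a1 and Slc25a18 overlap between the genotypes. Slc25a18 passed the filter on low counts through its FLOX libraries alone.

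The promoters of the 3 carriers with the smallest p in the family are shown, since the test separated the genotypes best for these genes. Each window runs from 250 bases before to 50 bases after the RefSeq start on build GRCm38.p6 and is written 5′ to 3′ on the gene's strand. Capitals mark CACGTG, the E-box bound by basic helix-loop-helix factors, which was searched on both strands.
Slc25a24 (chr3:109122899-109123198, plus strand): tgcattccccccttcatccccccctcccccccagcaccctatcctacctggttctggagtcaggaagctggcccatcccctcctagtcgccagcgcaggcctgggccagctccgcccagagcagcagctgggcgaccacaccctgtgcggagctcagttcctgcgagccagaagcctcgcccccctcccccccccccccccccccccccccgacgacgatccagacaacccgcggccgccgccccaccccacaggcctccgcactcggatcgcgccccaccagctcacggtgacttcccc
Slc25a13 (chr6:6217124-6217423, minus strand): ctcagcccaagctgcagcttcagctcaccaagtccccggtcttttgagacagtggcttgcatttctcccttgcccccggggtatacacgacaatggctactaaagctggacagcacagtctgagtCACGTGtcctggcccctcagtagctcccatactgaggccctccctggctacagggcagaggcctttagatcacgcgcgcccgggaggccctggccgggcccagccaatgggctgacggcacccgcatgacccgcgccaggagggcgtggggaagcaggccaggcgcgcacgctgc
Slc25a12 (chr2:71367706-71368005, minus strand): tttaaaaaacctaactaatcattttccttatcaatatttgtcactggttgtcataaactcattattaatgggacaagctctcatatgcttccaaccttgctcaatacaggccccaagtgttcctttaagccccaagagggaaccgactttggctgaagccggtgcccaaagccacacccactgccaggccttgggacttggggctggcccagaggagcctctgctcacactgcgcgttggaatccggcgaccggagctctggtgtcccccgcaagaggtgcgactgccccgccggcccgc
Slc25a13 holds CACGTG starting 125 bases before the gene start, and the windows of Slc25a24 and Slc25a12 hold none. Of 36 members with a RefSeq window 7 hold this motif, namely 2 of 8 that rose (Slc25a13 and Slc25a33), 1 of 4 that fell (Slc25a1), 3 of 17 that were tested and not called, and Slc25a31, which was not tested. It occurs in 12.1% of the 8895 tested genes with a window and in 8.09% of all 27025 genes. The cyclic AMP response element TGACGTCA was found in 2 members (Slc25a25 and Slc25a36), against 3.68% of the tested genes. The amino acid response element TGATGNAA, the NRF1 motif and the oestrogen-related receptor motif TCAAGGTCA were found in 0 of the 36 windows, against 2.92%, 2.55% and 0.315% of the tested genes. These motifs too were searched on both strands, and none of them contains another.

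Among 4 tested carboxylate carriers 2 fell and none rose, where 21.6% of all tested genes fell and 23.8% rose. The citrate carrier Slc25a1 (chromosome 16, 17925223 to 17928219), which exports citrate for lipid synthesis in the cytosol, averaged 52.6 ± 5.28 CPM in CKO and 62.5 ± 5.47 CPM in FLOX libraries (SD, n = 4 each; log2 fold change -0.25 with an SE of 0.08 and an edgeR adjusted p of 0.0265). CKO replicate 2 lay within the FLOX range. Slc25a11 (chromosome 11, 70644196 to 70647479), which exchanges oxoglutarate for malate and is the partner of Slc25a12 and Slc25a13 in the malate-aspartate shuttle, averaged 88.8 ± 4.93 CPM in CKO and 102 ± 8.72 CPM in FLOX (log2 fold change -0.20 with an SE of 0.07 and an edgeR adjusted p of 0.0344). Leaving out CKO replicate 6, 7 or 8, or FLOX replicate 3 or 6, ended both calls (edgeR adjusted p 0.0605 to 0.109 for Slc25a1 and 0.0737 to 0.133 for Slc25a11). With the replicate number as a block both calls ended too (edgeR adjusted p = 0.0879 for Slc25a1 and 0.314 for Slc25a11). The dicarboxylate carrier Slc25a10 (48.6 ± 2.00 CPM in CKO, 44.6 ± 3.59 in FLOX; log2 fold change 0.12 at an edgeR adjusted p of 0.177) and Slc25a35 (1.96 ± 0.212 CPM in CKO, 2.63 ± 0.570 in FLOX; log2 fold change -0.40 at an edgeR adjusted p of 0.105) did not pass, although Slc25a35 did without FLOX replicate 6 (-0.54, edgeR adjusted p = 0.0292).

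Carriers of carnitine, cofactors and glutathione went both ways, with 1 rise and 2 falls among 7 tested, against 23.8% and 21.6% of all tested genes. Slc25a20 (chromosome 9, 108662088 to 108684641), which brings acylcarnitines into the matrix for fatty acid oxidation, had 34.3, 29.3, 31.9 and 30.5 CPM in CKO and 45.4, 37.7, 41.1 and 35.1 CPM in FLOX. All CKO libraries lay below all FLOX libraries (log2 fold change -0.34 with an SE of 0.09 and an edgeR adjusted p of 0.00642). The call of Slc25a20 ended with the replicate number as a block (edgeR adjusted p = 0.0564). Slc25a40 (chromosome 5, 8422850 to 8454797), a relative of the glutathione carrier Slc25a39, rose to 13.8, 17.8, 16.95 and 16.7 CPM in CKO, against 10.4, 11.95, 12.7 and 12.8 CPM in FLOX (log2 fold change 0.45 with an SE of 0.10 and an edgeR adjusted p of 0.00325). Slc25a39 itself had 98.6, 84.9, 86.4 and 81.1 CPM in CKO and 104, 85.3, 102 and 91.4 CPM in FLOX (log2 fold change -0.13 at an edgeR adjusted p of 0.224). The S-adenosylmethionine carrier Slc25a26 lay lower in every CKO library than in any FLOX library (6.62, 5.01, 6.10 and 5.93 CPM in CKO, 6.94, 7.26, 7.07 and 7.10 CPM in FLOX) but did not pass (log2 fold change -0.27 at an edgeR adjusted p of 0.0621). The NAD carrier Slc25a51 (log2 fold change -0.12 at an edgeR adjusted p of 0.115) and the folate carrier Slc25a32 (log2 fold change -0.20 at an edgeR adjusted p of 0.208) did not pass either.

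Both iron carriers rose, as did 23.8% of all tested genes. Mitoferrin 1, Slc25a37 (ENSMUSG00000034248, chromosome 14, 69241848 to 69285112), which brings iron into the matrix for haem and iron-sulphur clusters, had 28.2, 32.9, 30.2 and 33.96 CPM in CKO and 20.9, 19.5, 25.6 and 22.8 CPM in FLOX. The lowest CKO library was above the highest FLOX library (log2 fold change 0.49 with an SE of 0.09 and an edgeR adjusted p of 0.000987, or 141% of FLOX). Mitoferrin 2, Slc25a28 (chromosome 19, 43663801 to 43674881), the form of most non-erythroid cells, had 16.5, 18.7, 18.3 and 18.8 CPM in CKO and 16.3, 13.5, 15.6 and 15.05 CPM in FLOX. The groups only just parted (log2 fold change 0.26 with an SE of 0.08 and an edgeR adjusted p of 0.0249), and the call ended without CKO replicate 6 (edgeR adjusted p = 0.0528) or 8 (0.0512), without FLOX replicate 4 (0.0714), and without FLOX replicates 4 and 7 together (0.117). It also ended with the replicate number as a block (edgeR adjusted p = 0.165). The erythroid markers given above were near 0 in both genotypes, and any part of erythroid cells in these values was not tested.

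None of the other carriers passed. The uncoupling-protein-like Slc25a14, Slc25a27 and Slc25a30 had log2 fold changes of -0.12, -0.46 and 0.19. Slc25a27 had 1.01, 1.52, 1.29 and 1.01 CPM in CKO and 1.54, 1.74, 1.67 and 1.77 CPM in FLOX, without overlap but with an edgeR adjusted p of 0.0756. Slc25a46, an outer-membrane member that binds the mitochondrial fusion machinery including OPA1, averaged 89.3 ± 3.74 CPM in CKO libraries and 92.2 ± 2.71 CPM in FLOX libraries (SD, n = 4 each; log2 fold change -0.04, 95% interval -0.18 to 0.09, edgeR adjusted p = 0.541). Slc25a45 (log2 fold change -0.11 at an edgeR adjusted p of 0.235) and Slc25a53 (log2 fold change -0.40 at an edgeR adjusted p of 0.117) were placed in no substrate group. Family members under other symbols were also looked at. Ucp2, the uncoupling protein of immune cells, had 632, 502, 509.8 and 515 CPM in CKO and 739, 595, 692 and 647 CPM in FLOX and was called lower, with FLOX replicate 4 inside the CKO range (log2 fold change -0.31 with an SE of 0.09 and an edgeR adjusted p of 0.0129). The outer-membrane homologues Mtch1 (log2 fold change 0.05 at an edgeR adjusted p of 0.604) and Mtch2 (log2 fold change -0.07 at an edgeR adjusted p of 0.373) did not pass. Ucp1 and Ucp3 had at most 2 counts in a library.

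Within pairs of carriers that share a role, ratios were compared on the scale of CPM per kilobase, as log2 values and without a test. The ratio of Slc25a4 to Slc25a5 was -2.23 ± 0.04 in CKO and -2.44 ± 0.05 in FLOX (SD, n = 4 each), and the groups did not overlap although neither gene was called by itself. In linear terms Slc25a4 stood at 0.213 of Slc25a5 in CKO and 0.184 in FLOX. Slc25a12 over Slc25a13 was -2.09 ± 0.02 in CKO and -2.04 ± 0.08 in FLOX, so both rose in nearly the same proportion and the groups overlapped. Slc25a28 over Slc25a37 was 0.65 ± 0.06 in CKO and 0.89 ± 0.15 in FLOX, with no overlap but with 0.72 in CKO replicate 7 and 0.73 in FLOX replicate 6 next to each other. Slc25a33 over Slc25a36 was -2.42 ± 0.22 in CKO and -3.06 ± 0.46 in FLOX, and FLOX replicate 3 (-2.49) lay within the CKO range. Slc25a39 over Slc25a40 was 3.15 ± 0.27 in CKO and 3.72 ± 0.23 in FLOX. There CKO replicate 2 (3.56) reached the FLOX range, which began at 3.56, and the other CKO libraries were at 2.98 to 3.07.

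**Figure D4:**
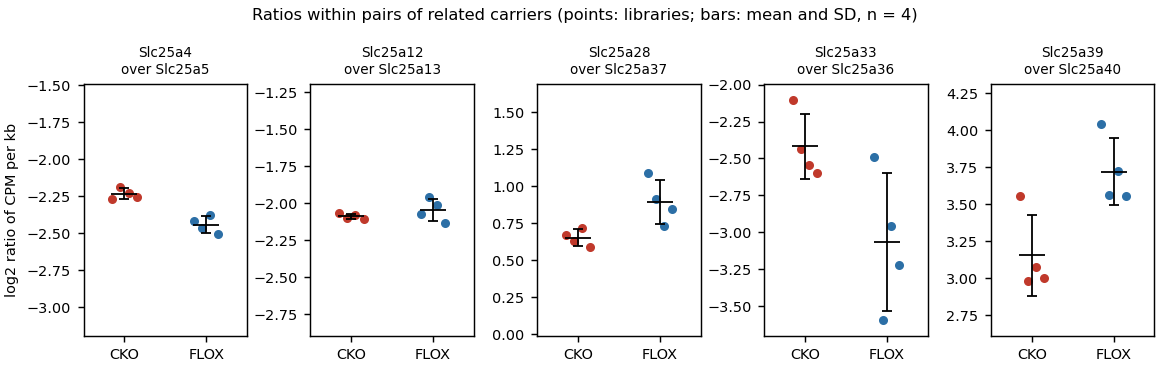
Log2 ratio of CPM per kilobase within 5 pairs of related carriers; points are libraries, CKO left of FLOX, black marks the mean and SD (n = 4), and all panels span the same number of log2 units. Slc25a4 over Slc25a5 parts the genotypes at -2.23 in CKO and -2.44 in FLOX, while Slc25a12 over Slc25a13 overlaps.

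The FLOX libraries differed among themselves, and this touches many carriers. Replicates 3 and 6 both lay above replicates 4 and 7 for 12 of the 38 tested members and both below them for another 12. Together these are 63.2% of the members, against 63.1% of all tested genes. The first 12 include the abundant Slc25a3, Slc25a4, Slc25a5, Slc25a11 and Slc25a39 and also Slc25a1, Slc25a10, Slc25a20, Slc25a22, Slc25a28 and Slc25a45. Among those with the opposite order are Slc25a24, Slc25a36, Slc25a44 and Slc25a51. Over the whole data, the second principal component (12.7% of the variance, after 70.2% on the first) parted the same FLOX libraries. Without FLOX replicates 3 and 6 the family had 12 rises and 7 falls, and without FLOX replicates 4 and 7 it had 8 of each; calls over all genes also grew, to 6090 and 5898, against 5231 with all libraries. In the first setting Slc25a36 (-0.28, edgeR adjusted p = 0.0026) and Slc25a35 (-0.60, adjusted p = 0.031) were called lower. In the second Slc25a3 (-0.25, edgeR adjusted p = 0.00263) and Slc25a39 (-0.23, adjusted p = 0.0151) were called lower and Slc25a30 was called higher (0.38, adjusted p = 0.00929). Slc25a24, Slc25a13, Slc25a12, Slc25a22, Slc25a37, Slc25a40, Slc25a42 and Slc25a44 kept their direction and call in both settings. With Slc25a3, Slc25a4 and Slc25a5 left out, the summed CPM of the other members was 1300 to 1319.9 in CKO and 1244 to 1254 in FLOX, which did not overlap. Slc25a24 alone, at a mean of 164 CPM in CKO and 103 CPM in FLOX, differed about as much as the whole sum (1311 and 1251 CPM). No rise of the remaining carriers can be read from this sum.

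**Figure D5:**
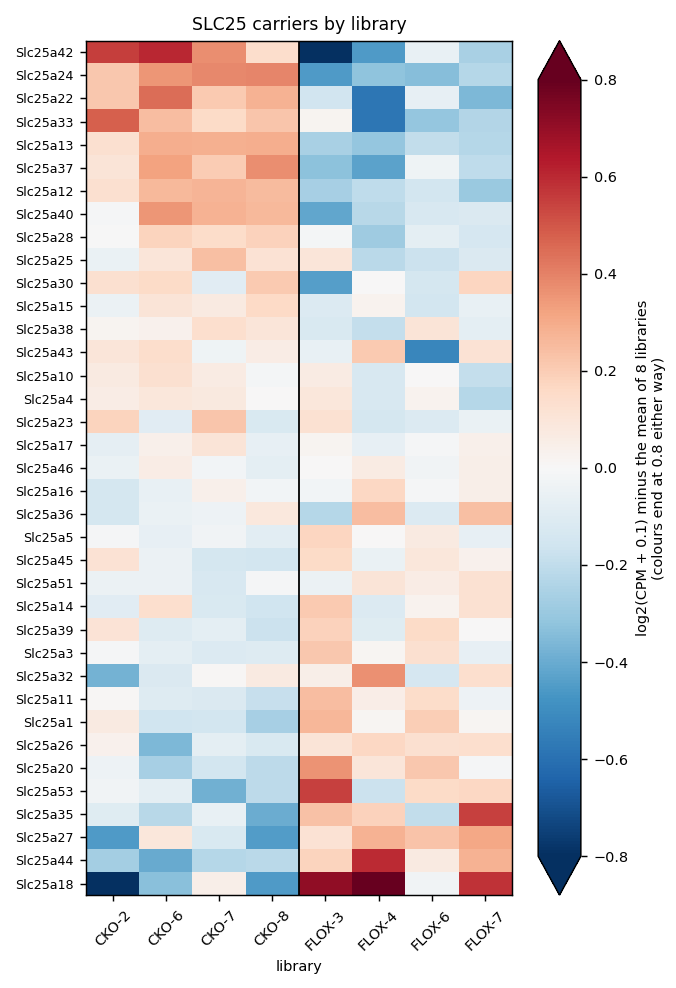
Log2(CPM + 0.1) of 37 tested carriers in each library, minus the carrier's mean over 8 libraries; rows run from the highest to the lowest log2 fold change, columns show CKO libraries left of the black line and FLOX libraries right of it. The top rows part by genotype, as does Slc25a44 near the bottom, whereas the bottom row, Slc25a18, overlaps. Middle rows such as Slc25a36 and Slc25a5 differ mainly between FLOX replicates.

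Other genes of mitochondrial transport, from lists that were set by name, also changed in both directions. Of all tested genes, 23.8% rose and 21.6% fell, and the list counts below were not tested against these shares. Of 22 tested channels and transporters of mitochondria outside the family, 5 rose and 3 fell, and their median log2 fold change was 0.03. The sodium-calcium exchanger Slc8b1 fell (93.7 ± 7.76 CPM in CKO, 153 ± 5.49 in FLOX; log2 fold change -0.71 at an edgeR adjusted p of 4.61e-06). The sideroflexin Sfxn5 rose (13.9 ± 1.23 CPM in CKO, 6.79 ± 0.493 in FLOX; log2 fold change 1.03 at an edgeR adjusted p of 5.57e-06), as did the serine transporter Sfxn1 (43.1 ± 1.47 CPM in CKO, 28.5 ± 2.71 in FLOX; log2 fold change 0.60 at an edgeR adjusted p of 4.72e-05). Of 12 tested genes of the TIM22 import route 4 rose and 2 fell, with a median of 0.01. Timm8a1, a small chaperone of the intermembrane space, rose (log2 fold change 0.68 at an edgeR adjusted p of 0.000182), as did Tomm70a, the surface receptor that recognises carrier precursors (116 ± 6.86 CPM in CKO, 94.4 ± 2.95 in FLOX; log2 fold change 0.30 at an edgeR adjusted p of 0.00142), whereas Timm8b fell (log2 fold change -0.35 at an edgeR adjusted p of 0.0054). The insertase gene Timm22 had 22.2 ± 1.29 CPM in CKO and 22.8 ± 2.09 CPM in FLOX (log2 fold change -0.04 at an edgeR adjusted p of 0.732).

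Enzymes that make or use the solutes of a carrier were listed as well. Of 45 tested 14 rose and 13 fell, with a median of 0.08, against 23.8% and 21.6% of all tested genes. The 3 of smallest p rose: Cmpk2, a mitochondrial pyrimidine nucleotide kinase (58.5 ± 3.44 CPM in CKO, 25.4 ± 2.21 in FLOX; log2 fold change 1.20 at an edgeR adjusted p of 3.56e-07), Aldh18a1, which starts proline synthesis from glutamate (67.1 ± 3.73 CPM in CKO, 31.2 ± 2.63 in FLOX; log2 fold change 1.10 at an edgeR adjusted p of 4.84e-07), and Gclm, a subunit of the first enzyme of glutathione synthesis (75.4 ± 3.47 CPM in CKO, 33.3 ± 5.67 in FLOX; log2 fold change 1.17 at an edgeR adjusted p of 2.34e-06). Further genes of that list were picked after their values were seen because they act next to a called carrier. In branched-chain amino acid breakdown, the pathway fed by Slc25a44, Bckdha (log2 fold change -0.64 at an edgeR adjusted p of 1.63e-05) and Bcat2 (log2 fold change -0.45 at an edgeR adjusted p of 0.000527) fell, while Bckdhb (log2 fold change 0.24 at an edgeR adjusted p of 0.229) and Dbt (log2 fold change -0.11 at an edgeR adjusted p of 0.162) did not pass. Of the malate-aspartate shuttle enzymes Got1 fell (log2 fold change -0.40 at an edgeR adjusted p of 0.000124), and Got2 (log2 fold change 0.15 at an edgeR adjusted p of 0.0635), Mdh1 (log2 fold change -0.08 at an edgeR adjusted p of 0.385) and Mdh2 (log2 fold change 0.08 at an edgeR adjusted p of 0.405) did not pass. In the carnitine system around Slc25a20, Crat (log2 fold change -0.41 at an edgeR adjusted p of 0.000406), Cpt2 (log2 fold change -0.24 at an edgeR adjusted p of 0.0281) and Cpt1a (log2 fold change -0.15 at an edgeR adjusted p of 0.0471) fell. Among genes of haem and iron-sulphur cluster synthesis, Alas1, which makes the first haem precursor (log2 fold change -0.60 at an edgeR adjusted p of 4.12e-05), and Iscu, the scaffold on which clusters form (log2 fold change -0.34 at an edgeR adjusted p of 0.00319), fell, and Fech, which inserts iron in the last step of haem synthesis, did not pass (log2 fold change -0.08 at an edgeR adjusted p of 0.322). The citrate-cleaving enzyme Acly rose (log2 fold change 0.17 at an edgeR adjusted p of 0.0266), whereas the citrate carrier Slc25a1 fell.

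Some members share features that the name rule did not use. Slc25a12, Slc25a13, Slc25a23, Slc25a24 and Slc25a25 carry calcium-binding domains; they were grouped after their values were seen, and nothing is drawn from their calls given above. In 4 places members lie side by side on a chromosome: Slc25a29 and Slc25a47 (162 bases apart on chromosome 12), Slc25a41 and Slc25a23 (2056 bases apart on chromosome 17), Slc25a54 and Slc25a24 (6461 bases apart on chromosome 3), and Slc25a43 and Slc25a5 (18448 bases apart on the X chromosome). Within such pairs levels could differ widely, since Slc25a41 had 0 counts and Slc25a54 had 2 in all, while their neighbours Slc25a23 and Slc25a24 were tested. Counting may be less certain for members with near-identical copies elsewhere, because read pairs with several alignments were not assigned. Stretches of at least 150 bases with at least 95% identity to another annotated transcript were found for Slc25a5 (2 other genes, up to 900 bases), Slc25a40 (1 gene, 724 bases), Slc25a36 (1 gene, 544 bases), Slc25a37 (2 genes, up to 382 bases), Slc25a12 (1 gene, 247 bases), Slc25a51 (15 genes, up to 161 bases) and Slc25a35 (2 genes, up to 160 bases). The strand setting of the counting is not given in the sources used here, and exons of several tested members overlap genes of the opposite strand. Among them are Slc25a35 (820 bases shared with Rangrf), Slc25a25 (379 bases, Naif1), Slc25a46 (374 bases, B930094E09Rik), Slc25a33 (281 bases, Gm13068), Slc25a10 (228 bases, Gm11788), Slc25a23 (142 bases, Gm17168), Slc25a26 (139 bases, Lrig1) and Slc25a37 (Gm31748 and Gm27223).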

How the data were processed

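Per the labels' protocols, total RNA was sequenced as paired-end reads on a NovaSeq instrument. HISAT2 2.0.5, HTSeq and the build mm10 are named per the submitters' processing notes, and the sources used here do not give HTSeq's version, annotation or strand setting. Each library's deposited file holds raw, whole-number counts by gene symbol; for all 47 members they equal those in the deposited table of the whole series, where 0 columns had no sample. HTSeq's 5 unassigned classes, 28.3% to 33.7% of pairs, were left out of library sizes and tests.

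In R 4.3.3, edgeR 4.0.16 kept 11519 genes (filterByExpr, minimum count 10, minimum total 15), scaled libraries by TMM and compared CKO with FLOX by the robust quasi-likelihood F test, with Benjamini-Hochberg adjustment over all tested genes and calls at 0.05. The standard error is the log2 fold change over the square root of F. Exon lengths and positions come from GENCODE M21 (GRCm38, the assembly of mm10), promoters from RefSeq. Libraries of a group differed by more than sampling noise in every pair (chi-square 2.46 to 28.3 times its degrees of freedom). The test was also run on simulated counts, drawn independently for each gene and library. These hold no split among the FLOX libraries, so that run cannot show how the test behaves with such a split.

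Given in every library are called members with a log2 fold change of at least 0.5 in size, the 3 highest per kilobase and members of 5 related pairs; of the others, up to 3 of smallest p per role. Slc25a20, Slc25a26, Slc25a27 and Ucp2 are given per library and further members and enzymes are named outside that rule, chosen after their values were seen. Members and lists were chosen with earlier results of these data known. The alternatives comprised other scaling (RLE, upper quartile, without the 20 most abundant genes), other filters (none, or at least 1 CPM in 4 libraries), other tools (DESeq2 1.42.0, limma-voom from limma 3.58.1), a fold limit for calls, leaving out each library, the replicate number as a block and, chosen after seeing the data, 3 sets of 2 libraries left out. Results of 1 tested member and 1 listed gene are not reported here, though both enter the counts.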

Additional observations from a re-analysis of the deposited data

Results flagged for a closer look

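Of 86 groups of 4 values examined, 3 held a library far from the other 3. Chance gives about 1 in 20 for independent groups, and the number of flags is not above that rate. These groups share the same 8 libraries, however, so the number of flags decides nothing about chance. All 3 concern CKO replicate 2, the CKO library with the fewest assigned read pairs (11764855). Slc25a12 was at 50.5 CPM there and at 55.2 to 55.8 CPM in the other CKO libraries. Slc25a13 was at 104 CPM there and at 116.2 to 116.7 CPM in the others. The log2 ratio of Slc25a39 to Slc25a40, per kilobase, was 3.56 there and 2.98 to 3.07 in the others. In each case CKO replicate 2 lay on the side of the FLOX values. Without it the log2 fold changes were 0.51 for Slc25a12 and 0.56 for Slc25a13, both still called higher. Over the whole data, CKO replicate 2 differed from the other CKO libraries. The chi-square was 7.49 to 9.75 times its degrees of freedom in its pairs and 2.46 to 3.07 times in the other CKO pairs. On the first principal component it lay at -19.6, against -30.4 to -27.2 for the other CKO libraries. Why this library stands apart there was not tested.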

How the results depend on the processing

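Over 19 alternatives that refit each member (the fold limit is not among them), 8 of the 15 called members kept their direction and call in every one: Slc25a12, Slc25a13, Slc25a22, Slc25a24, Slc25a37, Slc25a40, Slc25a42 and Slc25a44. Among the others that are reported here, the call was lost and the direction kept in 1 (Slc25a20) to 9 (Slc25a11) of the alternatives. Slc25a18 was not tested with the filter of 1 CPM. Members called lower, 6 in all, were 2 to 7 with each library left out (2 without CKO replicate 6 or 8, 3 without CKO replicate 7), 4 with upper-quartile factors, and members called higher, 9 in all, were 8 to 10. Requiring a log2 fold change over 0.5 left 5 higher and 2 lower members, with Slc25a12, Slc25a37 and Slc25a40 among those lost, and 2223 of the 5231 called genes. The members' median log2 fold change, -0.07, ranged from -0.0761 (without FLOX replicate 6) to -0.0204 (without CKO replicate 2) with each library left out and was -0.0090 without FLOX replicates 4 and 7. In that setting, chosen after seeing the data, Slc25a36 turned to 0.13 and Slc25a4 to -0.0055, neither called, whereas without FLOX replicates 3 and 6 they were -0.28 and 0.23, both called; the cause was not tested.

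The numbers 6 and 7 occur in both genotypes, but nothing in the labels says that a number pairs libraries. The deviations of same-numbered libraries from their group means correlated at 0.14 for number 6 and -0.07 for number 7 (over tested genes, which are not independent). With the replicate number as a block, which leaves 1 residual degree of freedom, 3503 genes were called, among them 7 higher members and 1 lower member; the members' median was -0.0088, and Slc25a46 turned to 0.0099 (not called). Slc25a18 and Slc25a42 rest on few counts, and depth as a limit on their calls was not tested.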
